A study of Mus musculus with 2 samples.

Results

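Pi16 adventitial fibroblasts are the mesenchymal cells that carry the transcripts of the cuff of connective tissue around large lung vessels and airways. They were chosen by summed counts of UMIs (unique molecular identifiers, 1 per captured mRNA molecule) in cells that passed 2 limits, 500 or more detected genes and no more than 10% mitochondrial UMIs. A member had at least 3 UMIs over Col1a1, Col1a2, Col3a1, Mfap4 and Bgn and more of these than of the endothelial genes Pecam1, Cdh5, Cldn5, Egfl7 and Ramp2. It also had at least 3 UMIs over Pi16, Igfbp6, Scara5 and Entpd2, fewer than 3 over the myofibroblast and pericyte-associated genes Hhip, Aspn, Mustn1 and Enpp2, and fewer than 10 over the inflammatory genes Cxcl9 and Timp1. The rule found 204 members among 3410 kept cells. Of these, 131 were among 1423 niche cells and 73 among 1987 distal cells. These counts chose the members, so the levels of the genes in the rule, and of every gene in a comparison of members with other cells of the same library, are descriptions.

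The series holds 2 single-cell libraries of CD45-negative mouse lung cells, meaning cells without the surface marker of blood-derived cells. The lungs of both groups came from mice given an intravenous injection of Labelling-4T1, a mouse mammary carcinoma line that releases a fluorescent protein taken up by cells near it, and were collected 7 days later. One library is titled as niche cells and the other as distal lung cells. Both groups carried the same injection, so there is no library from a lung without tumour cells. The deposited counts of niche cells are named Cherry-positive and those of distal cells Cherry-negative. The labels used here do not give the limits of that gate. They also do not say how many animals gave each library, or the age, strain or sex of the mice. With 1 library per group there is no replicate check, and every interval below covers counting error in these libraries, not variation between mice.

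Adventitial fibroblasts line the outer coat of arteries, airways and veins and share that space with lymphatics, nerves and resident immune cells. They are known as a source of interleukin 33 and thymic stromal lymphopoietin, of chemokines for monocytes and eosinophils, and of the loose collagen and decorin-rich matrix of the cuff. Cells of this kind carry Pi16, a peptidase inhibitor of unknown substrate, and are found in many organs. Alveolar fibroblasts, their neighbours in the gas-exchange wall, are marked by Npnt, Tcf21 and the methyltransferase gene Inmt.

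The members held 518806 niche and 210189 distal UMIs, and the median niche member had 3570 UMIs and the median distal member 2898. The median number of detected genes was 1486 and 1317. Mitochondrial UMIs had medians of 2.66% and 2.76%. Scrublet called 13 niche and 21 distal cells of the whole tables as doublets, and 0 of these were members. The tables shared 7 barcodes, and 0 of these were members. Members with little Malat1, a nuclear RNA that is low in damaged cells, numbered 2 (niche) and 4 (distal).

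The defining markers were present in both libraries. Pi16 had a UMI in 94 of 131 niche members (71.8%, exact Clopper-Pearson 95% interval 63.2% to 79.3%) and in 45 of 73 distal members (61.6%, 49.5% to 72.8%). In endothelial-gated cells, which should lack it, Pi16 had a UMI in 1.99% of 502 niche and 1.41% of 1347 distal cells, at median depths of 2355.5 and 1744 UMIs. Igfbp6, a binding protein for insulin-like growth factor 2, had a UMI in 120 niche and 70 distal members. Clec3b, which encodes the plasminogen-binding protein tetranectin, was found in 125 and 71, the small proteoglycan gene Dcn in 102 and 54, and Col14a1, a collagen that sits on fibril surfaces, in 88 and 41. At least 3 of these 5 markers were detected in 109 niche and 58 distal members, and all 5 in 64 and 29. Mesenchymal cells outside every gate of the rule, 290 niche and 179 distal cells, had median depths of 2833 and 2066 UMIs. Among them Clec3b had a UMI in 72.1% and 84.4%, and Igfbp6 in 27.9% and 40.2%. Dcn had one in 16.2% and 7.26%, Col14a1 in 9.31% and 3.91%, and Pi16 in 3.10% and 1.68%.

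Markers outside the rule had close levels in the 2 libraries, and Igfbp6 of the rule did not. Levels are given as CPM, the UMIs of a gene over all members of a library per 1000000 UMIs of the genes that both tables list, with an exact Poisson interval. Dcn stood at 6956 CPM (6730 to 7187) in niche and 6654 (6310 to 7013) in distal members. Clec3b stood at 3528 (3368 to 3694) and 3275 (3034 to 3529), and Col14a1 at 535 (474 to 602) and 491 (401 to 595). Pi16, a gene of the rule, stood at 1637 (1529 to 1751) and 1797 (1620 to 1988). Igfbp6, also of the rule, was lower in niche members, at 1403 (1302 to 1509) against 2383 (2179 to 2602). The other rule genes were sparse: Scara5, a ferritin receptor gene, had 65 and 18 UMIs, and Entpd2, an ectonucleotidase gene, had 167 and 50.

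Not every member carried the adventitial programme. The 37 niche and 28 distal members without a Pi16 UMI passed the rule mainly through Igfbp6, which was the only detected gene of the 4 in 31 and 22 members. Dcn was absent from 23 of the 37 and 15 of the 28, against 6 of the 94 and 4 of the 45 members with Pi16. The alveolar fibroblast gene Npnt, which encodes the basement membrane protein nephronectin, had a UMI in 26 of the 37 and 19 of the 28, against 7 of the 94 and 4 of the 45. The split by Pi16 was made after these values were seen. Median depths were 3559 and 3012 UMIs without Pi16, and 3633 and 2682 with it.

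A score per cell showed the same division. The adventitial score, the percentage of a cell's UMIs on 21 adventitial fibroblast genes outside the rule, had medians of 4.26% in niche and 4.57% in distal members with Pi16, and of 1.92% and 2.28% in those without. The alveolar score, over 17 alveolar fibroblast genes, had medians of 0.228% and 0.392% with Pi16 and of 1.53% in both libraries without. In mesenchymal cells outside every gate of the rule the alveolar score had a niche median of 0.973% and a distal median of 2.28%. The adventitial score was above the alveolar score in 92 of 94 and 44 of 45 members with Pi16, and in 19 of 37 and 15 of 28 without. That order was also found in 96.8% and 99.2% of Hhip-gated cells and in 98.2% and 98.0% of endothelial-gated cells, so it does not set members apart from them. Median adventitial scores were 0.827% and 0.910% in Hhip-gated cells, and 0.782% and 0.680% in endothelial-gated cells. Between the 2 fibroblast profiles, members with Pi16 lay on the adventitial side, and those without it divided between both.

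**Figure D1:**
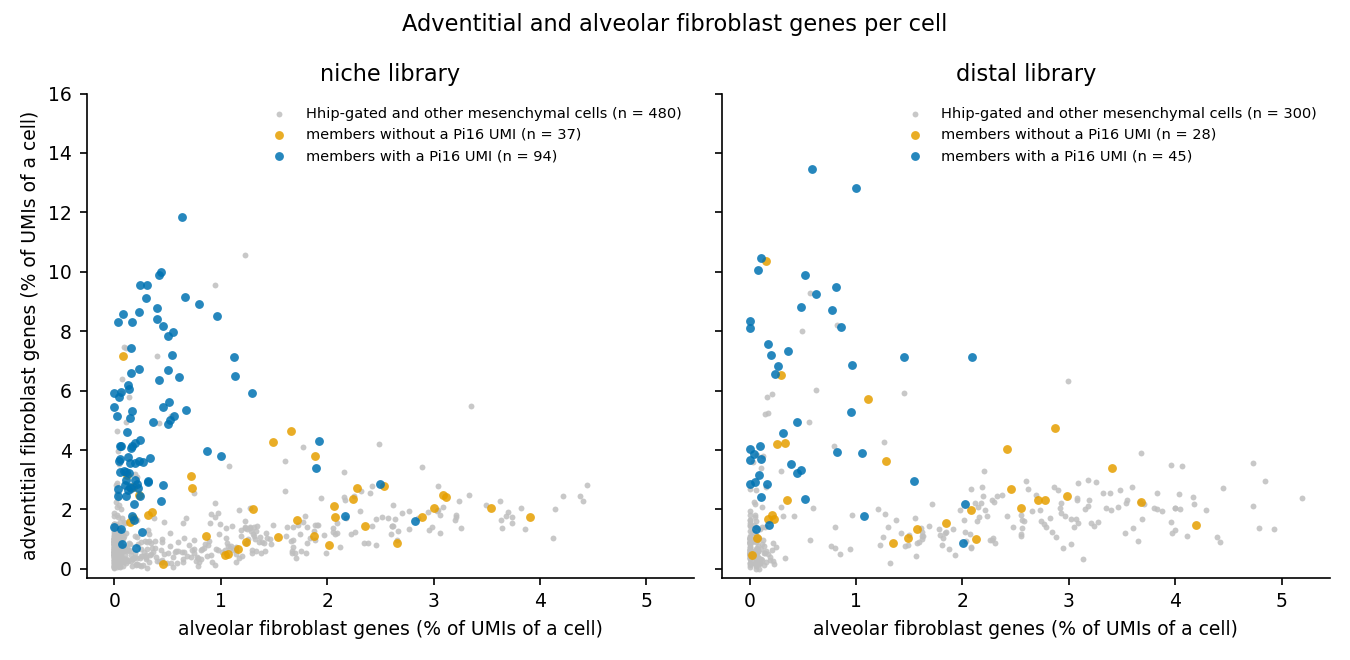
Adventitial against alveolar fibroblast score (each a percentage of the UMIs of a cell) in niche and distal mesenchymal cells; each point is 1 cell, and the Cxcl9-Timp1-gated cells of the niche are left out. Members with a Pi16 UMI lie at low alveolar scores, with medians of 0.228% and 0.392%, and those without spread along the alveolar axis, with medians of 1.53%.

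Summed over cells, alveolar fibroblast genes were lower in members with Pi16 than in those without. Here and below a gene is counted as higher or lower when the ratio passed 2-fold and its exact 95% interval excluded equality, among genes with at least 10 UMIs over both sides. Of the alveolar fibroblast list, 13 of 16 measured genes were lower in the niche (median log2 ratio -3.24) and 11 of 15 in the distal library (-2.38), against 5.5% and 5.46% of all genes. Log2 ratios of members with Pi16 over those without, niche then distal, were -4.80 and -3.70 for Npnt, -3.56 and -4.92 for the carboxylesterase gene Ces1d, and -3.76 and -2.48 for the integrin gene Itga8. Of the adventitial list, 17 of 24 genes were higher in the niche (1.80) and 10 of 23 in the distal library (0.88), against 3.56% and 3.57% of all genes. That list holds 4 genes of the rule, and 1 of them is Pi16, whose direction the split fixed. Members without Pi16 had to pass the rule through the others. Of 3082 genes measured on both sides in both libraries, 37 (1.2%) were higher in both and 72 (2.34%) lower in both. In the adventitial list the ratios were 3.02 and 3.29 for Serpinf1, which encodes the secreted factor PEDF, and 2.30 and 1.79 for Dcn.

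A few members without Pi16 carried genes of mesothelium, the sheet of cells that covers the lung. Members with at least 2 UMIs over the mesothelial genes Krt19 and Gpm6a numbered 1 among niche and 4 among distal cells, and none of them had a Pi16 UMI. The 4 distal cells held 17 of 17 Gpm6a and 13 of 14 Krt19 UMIs of all distal members, 32 of 44 UMIs of Clu and 225 of 558 of Rarres2. They also held 96 of 500 Igfbp6 UMIs, the gene through which they passed the rule, and 59 of 1396 Dcn UMIs. These cells were singled out after their values were seen. Ratios of niche over distal library that moved by over 1.5 times without them are given both ways.

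The thresholds cut through a continuum. Niche cells with 2 UMIs over the rule genes, just outside, numbered 24 and had a median adventitial score of 1.81%, and the 14 with 3 UMIs, just inside, had 1.75%. The corresponding distal counts were 20 (1.99%) and 13 (2.25%). At the Hhip limit the libraries differed in order: 8 niche cells just outside, with 3 UMIs, had a median adventitial score of 5.02% and 19 just inside, with 2 UMIs, had 2.82%, while 6 distal cells just outside had 4.74% and 7 just inside had 7.18%. In all, 21 niche and 23 distal cells met the Pi16 condition but failed the Hhip limit. The Cxcl9 and Timp1 limit left out 6 niche cells, with 14 to 150 UMIs of the pair, and 0 distal cells. The highest sum inside the limit was 7 UMIs for niche and 4 for distal cells, and 72 and 48 members had none.

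Members made up 9.21% of kept niche cells (7.75% to 10.8%) and 3.67% of kept distal cells (2.89% to 4.60%). The order turned when only mesenchymal cells were counted, which numbered 793 niche and 373 distal cells: members were 16.5% (14% to 19.3%) of niche and 19.6% (15.7% to 24.0%) of distal mesenchymal cells. After each cell was thinned to 1200 UMIs, with shallower cells left out, the shares of mesenchymal cells were 12.6% (94 of 749) and 16.4% (52 of 317). The intervals of the 2 libraries overlapped in both forms. Members with Pi16 were 11.9% and 12.1% of mesenchymal cells. The niche mesenchymal cells also included 182 beyond the Cxcl9 and Timp1 limit, against 0 of 373 distal ones, which allows a share of up to 0.804%. The lower share of all kept cells in the distal library stands beside its 1347 endothelial-gated cells, against 502 in the niche, and the gate of each sort can set such shares.

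Members had higher levels of adventitial genes than all other mesenchymal cells of the same library. Of 7921 genes measured in both libraries, 120 (1.51%) were higher in members in both. In the niche 483 of 10373 genes (4.66%) were higher and 631 (6.08%) lower, and in the distal library 294 of 7966 (3.69%) were higher and 367 (4.61%) lower. Of the adventitial list, which holds 4 genes of the rule, 17 of 25 genes were higher in the niche (median log2 ratio 2.06). In the distal library 15 of 24 were higher (1.37), and 0 were lower in either library. The choice of members bears directly on those 4 genes. These values come from the cells that the rule chose and carry no test.

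Several genes outside the rule with high ratios in both libraries encode secreted or surface regulators. Serpinf1 had 1130 CPM in niche members and 1230 in distal ones, with log2 ratios over other mesenchymal cells of 3.52 (3.31 to 3.73) and 2.50 (2.21 to 2.80). Igfbp4, a binding protein for insulin-like growth factors, had ratios of 2.23 and 2.04, and Gpc3, a cell-surface proteoglycan, of 2.57 and 2.18. Rspo1, an amplifier of Wnt signalling, had 3.12 and 3.54, from 15 niche and 19 distal UMIs. Of these, 14 niche and 8 distal UMIs lay outside the members with mesothelial genes, and ratios over other mesenchymal cells without those members were not computed. Cxcl12, the chemokine that retains leukocytes and progenitors, had 1.51 and 2.34, at 773 and 496 CPM. The retinol carrier gene Rbp4 had 2.81 and 1.79.

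Others encode matrix proteins and enzymes. Dcn, which had the highest lower bound over both libraries of all genes outside the rule, had ratios of 2.50 and 2.37, the fibulin gene Fbln1 of 2.40 and 1.90, Aebp1 of 1.97 and 2.54, and Smoc2 of 3.17 and 2.21. The serine protease gene Htra3 had 2.37 and 2.38, and Mmp3, a metalloproteinase that cleaves proteoglycans, 2.43 and 1.94. In niche members 29.9% of the Mmp3 UMIs came from 1 cell. Gsn, which encodes the actin-severing protein gelsolin, had 12055 niche and 6067 distal UMIs, and its ratios were 2.49 and 1.40. Among regulators of transcription, Osr1 had 2.36 and 2.45 and Twist2 2.85 and 2.13. The imprinted gene Peg3 had 4.0 and 3.13.

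Genes of contractile mesenchymal kinds were lower in members. Of the alveolar myofibroblast list, which holds 4 genes of the rule, 13 of 14 genes were lower in both libraries. Of the smooth muscle list 9 of 10 were lower in both, with medians of -3.17 and -3.98, and of the pericyte list 7 of 13 and 10 of 12, with 1 higher in each. The alveolar fibroblast list had another count in each library: in the niche 0 of 17 genes were lower and 1 was higher (median 0.06), and in the distal library 9 of 17 were lower and 0 higher (-1.02). In niche members 19 of 26 interferon response genes (median -1.59) and 10 of 18 MHC class I genes (-1.04) were lower than in other mesenchymal cells, which there include those beyond the Cxcl9 and Timp1 limit. In the distal library 2 of 23 and 0 of 17 were lower (-0.37 and 0.09). The chemokine, cytokine and receptor list had 5 higher and 6 lower of 24 genes in the niche (-0.06), and 4 higher and 0 lower of 20 in the distal library (0.43).

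Complement genes were higher in distal members than in other distal mesenchymal cells. In the distal library 8 of 14 complement genes were higher in members (median 1.26), among them C3 at 2.47, C4b at 2.25 and Cfb at 3.20. In the niche 2 of 15 were higher (0.34), with 0.18 for C3, 0.34 for C4b and 0.16 for Cfb. C3 itself stood at similar levels in the members of both libraries, at 1102 CPM (1014 to 1197) in the niche and 1182 (1040 to 1339) in the distal library, while mesenchymal cells outside the gates had a niche over distal log2 ratio of 1.98 for it.

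**Figure D2:**
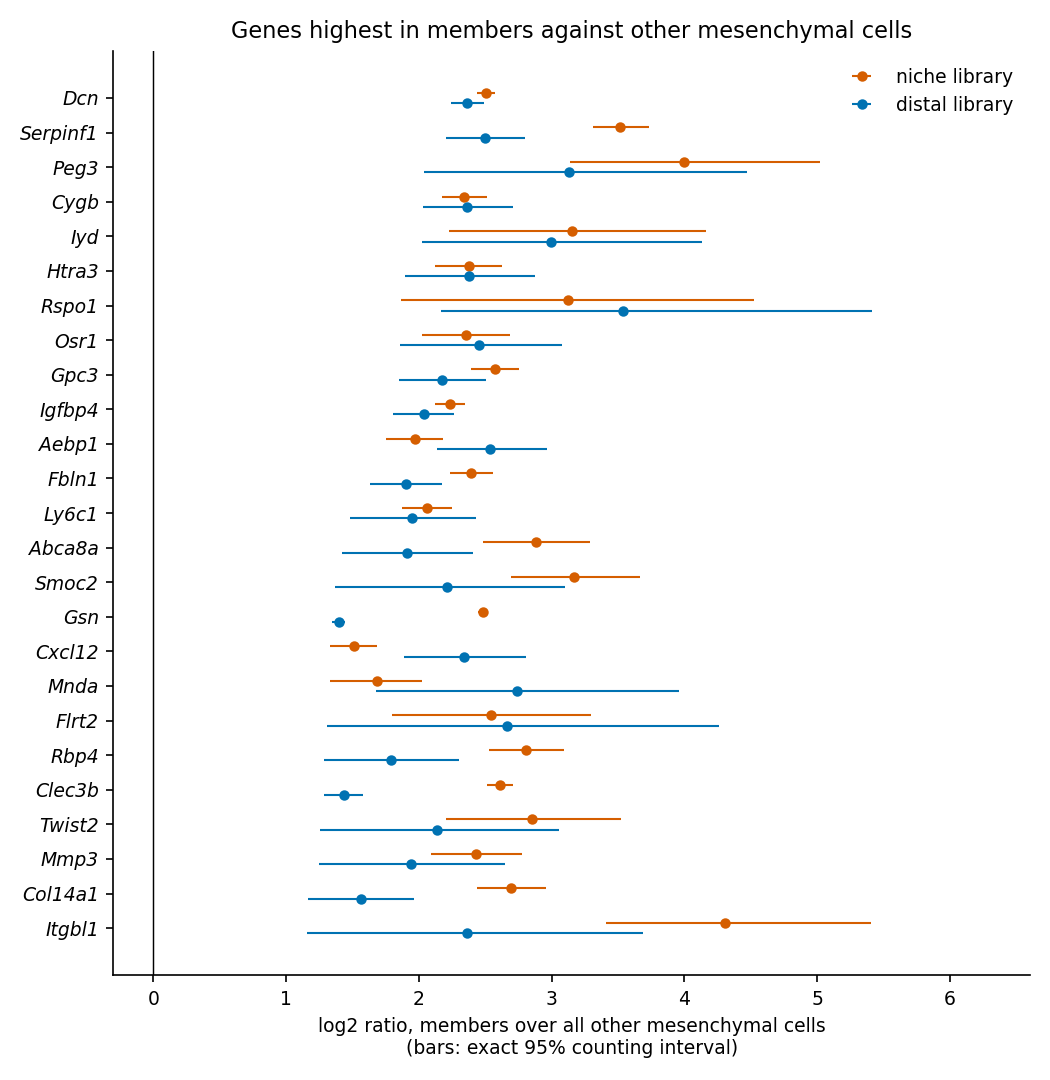
Log2 ratio of members over all other mesenchymal cells in the niche (orange) and distal (blue) library for the 25 genes outside the rule with the highest lower bounds; bars are exact 95% counting intervals. All 25 lie above 0 in both libraries, and intervals of sparse genes such as Rspo1 are wide.

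Between the libraries, members differed by few genes. Of 6886 genes listed in both tables with at least 10 UMIs in members, 115 (1.67%) were 2-fold higher in the niche and 192 (2.79%) lower, and the median log2 ratio of niche over distal members over all of them was -0.08. With a TMM scaling factor between the sums the split was 159 higher and 158 lower, and after thinning each cell to 1200 UMIs it was 55 and 61. In members with Pi16, 104 of 5470 genes (1.9%) were higher and 166 (3.03%) lower. Of the genes higher in all members, 55 were also higher in members with Pi16, which is 47.8% of the 115 and 52.9% of the 104. In cell suspensions, fewer transcripts per cell and fewer cells with a transcript cannot be told apart in such sums, so the number of cells with a UMI is given beside the values that turn on it.

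Transcripts of alveolar epithelium, a cell type outside the members, were lower in niche members. Of 9 measured alveolar epithelial genes, 8 were lower in niche members (median -3.14). The summed level of the list was 223 CPM in niche and 2398 in distal members, and 3312 and 21543 in endothelial-gated cells. In mesenchymal cells outside the gates 3 of 15 genes of the list were higher in the niche and 2 lower (median -0.23). In Hhip-gated cells 9 of 10 were lower and 0 higher (-4.03). The surfactant gene Sftpc stood at 134 CPM (104 to 169) in niche and 1764 (1588 to 1953) in distal members, with a log2 ratio of -3.71 (-4.11 to -3.35). It had a UMI in 45 of 131 niche and 72 of 73 distal members, and in 95.8% of distal endothelial-gated cells. In mesenchymal cells outside the gates it had one in 26.2% of niche and 96.1% of distal cells. The surfactant gene Sftpa1 (-3.00) and the lysozyme gene Lyz2 (-3.70), which epithelium and macrophages share, stood at 21.3 against 176 and 13.6 against 186 CPM. In droplet libraries RNA free in the suspension can enter any droplet, and its part in these and other lower values was not tested.

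**Figure D3:**
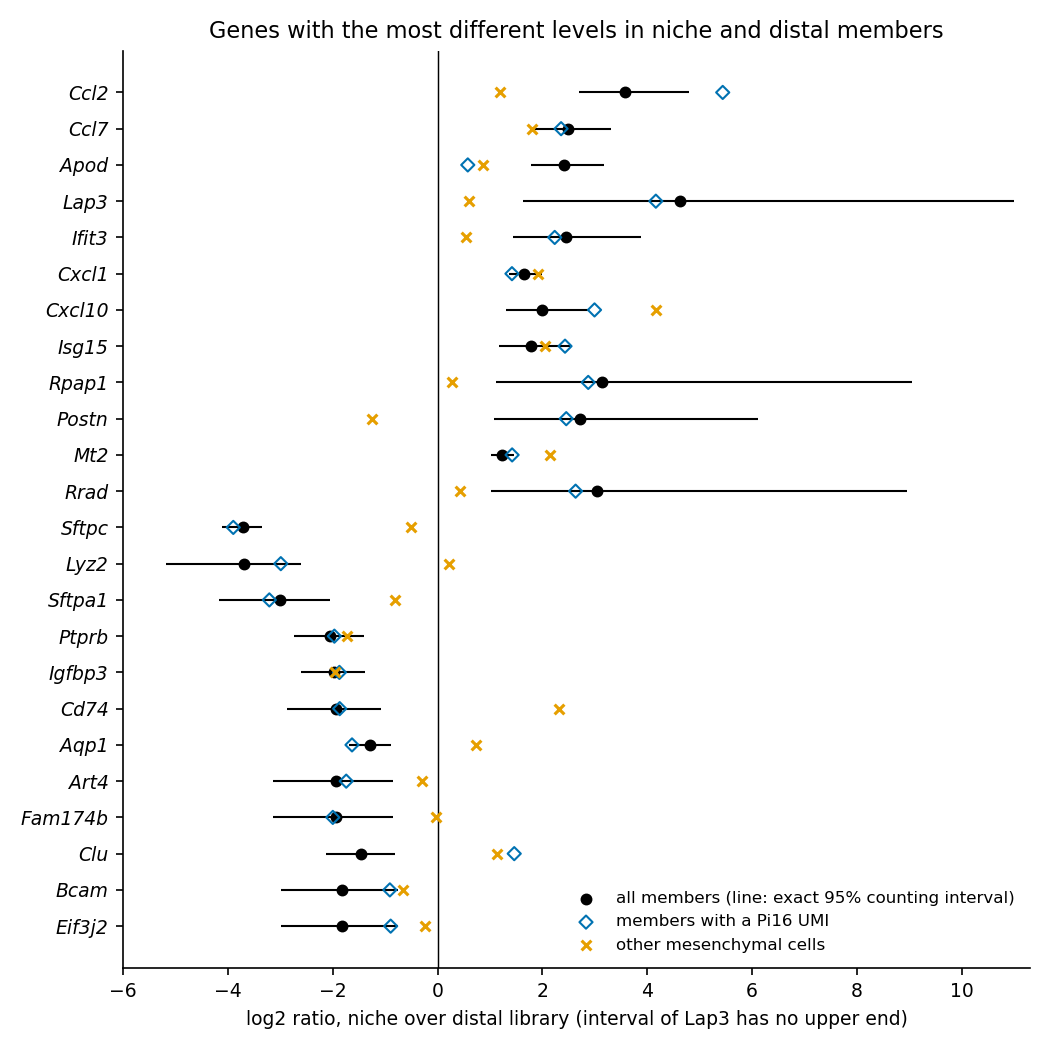
Log2 ratio of niche over distal library in all members (black, with the exact 95% counting interval), in members with a Pi16 UMI (blue) and in mesenchymal cells outside the gates (orange), for the 12 genes with the highest and the 12 with the lowest bounds. Ccl2 and Cxcl10 lie above 0 in all 3, and Clu, Cd74, Aqp1 and Postn have opposite signs in some of them.

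Interferon response genes were higher in niche members. Of 24 measured genes of the list, 9 were higher and 0 lower, against 1.67% higher and 2.79% lower of all genes. The median log2 ratio was 0.89 in all members and 1.35 in members with Pi16. The 9 were Cxcl10, Ifit1, Ifit3, Isg15, Rsad2, Zbp1, Gbp4, Igtp and Ifi47. Of the transcription factors of the pathway, 2 are given here: Irf1 had a ratio of 0.02 (-0.43 to 0.49) and Irf7 of 0.86 (-0.14 to 2.15). Interferons bind surface receptors whose signalling brings transcription factors, IRF proteins among them, to a short element of target promoters, the interferon-stimulated response element. NF-kB, the main factor downstream of interleukin 1 and tumour necrosis factor, binds a different short element.

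The promoters of 4 higher genes are shown because they hold these elements. Each is the 250 bases before the start of the gene in RefSeq on GRCm38.p6, written 5′ to 3′ on the strand of the gene. The letters searched on both strands were GAAA NN GAAA for the interferon element and GGGA NN TTCC for the NF-kB element, each read without the gaps and with N for any base, and capitals mark every match.
Isg15 (chr4:156200819-156201068, minus strand): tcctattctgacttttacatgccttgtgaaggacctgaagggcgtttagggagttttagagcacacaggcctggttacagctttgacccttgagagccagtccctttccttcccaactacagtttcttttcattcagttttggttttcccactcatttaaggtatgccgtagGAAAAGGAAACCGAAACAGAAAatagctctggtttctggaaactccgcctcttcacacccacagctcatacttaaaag
Ifit3 (chr19:34583279-34583528, plus strand): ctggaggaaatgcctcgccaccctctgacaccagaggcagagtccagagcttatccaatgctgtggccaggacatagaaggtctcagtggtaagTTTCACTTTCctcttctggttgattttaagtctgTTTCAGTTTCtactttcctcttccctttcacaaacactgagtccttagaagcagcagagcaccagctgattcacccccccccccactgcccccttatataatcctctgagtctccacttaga
Cxcl10 (chr5:92348890-92349139, minus strand): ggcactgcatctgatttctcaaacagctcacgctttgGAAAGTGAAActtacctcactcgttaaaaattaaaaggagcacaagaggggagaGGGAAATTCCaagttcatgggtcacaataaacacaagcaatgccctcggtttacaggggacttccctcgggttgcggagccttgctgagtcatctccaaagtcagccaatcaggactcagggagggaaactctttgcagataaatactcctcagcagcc
Cxcl1 (chr5:90890995-90891244, plus strand): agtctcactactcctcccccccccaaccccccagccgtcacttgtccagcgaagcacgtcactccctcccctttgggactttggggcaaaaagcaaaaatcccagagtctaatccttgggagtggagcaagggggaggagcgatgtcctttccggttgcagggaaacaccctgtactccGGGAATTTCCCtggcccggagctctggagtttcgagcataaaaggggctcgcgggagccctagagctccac

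Isg15 had 3 overlapping matches of the interferon element, Ifit3 had 2 and Cxcl10 had 1, and Cxcl10 and Cxcl1 had 1 and 2 matches of the NF-kB element, those of Cxcl1 overlapping. Over all 32841 promoter windows of this length in the table, 2.98% held the interferon element and 1.21% the NF-kB element. Of the 115 genes higher in niche members, 91 had a window, which is under 80%, so a share over these genes was void and is not given. Among other higher genes whose windows were searched, Ifit1 had 2 matches of the interferon element and Lap3 had 0 matches of either element. A match describes letters in the window and shows no binding.

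The counts of these genes were carried by a minority of cells. Isg15, a ubiquitin-like modifier, stood at 370 CPM (319 to 426) in niche and 105 (65.7 to 159) in distal members, with UMIs in 37 of 131 and 12 of 73 cells. Its ratio was 1.79 (1.18 to 2.53), 2.43 in members with Pi16, and 2.44 (190 and 13 UMIs) without the 5 members with mesothelial genes. Ifit3, an RNA-binding antiviral gene, stood at 194 CPM (158 to 236) in 27 cells and 33.4 (13.4 to 68.7) in 6 cells, a ratio of 2.45 (1.44 to 3.89). Isg15 and Ifit3 were found together in 18 niche members and 0 distal members. The interferon list took a median of 0.149% of UMIs per niche member and 0.109% per distal member, with upper quartiles of 0.435% and 0.305%. The 10 niche members with most of these UMIs held 42.9% of them, and the 10 such distal members 50%.

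Cxcl10, a chemokine for T cells and natural killer cells, had 162 niche and 16 distal UMIs, which is 314 CPM (267 to 366) against 76.3 (43.6 to 124). They came from 38 and 6 members, and 62.5% of the distal UMIs came from 1 cell. The ratio was 2.0 (1.30 to 2.88) in all members and 2.99 in members with Pi16. Without the 5 members with mesothelial genes it was 3.25, from 160 and 6 UMIs. Its niche level in mesenchymal cells outside the gates was 1997 CPM and in Hhip-gated cells 3111, and their log2 ratios were 4.18 and 3.91. The rule caps Cxcl9, a close relative of Cxcl10, so the 6 niche cells left out by that limit bear on this value: with them the ratio was 2.58, and that of Gbp4 was 2.47 in place of 2.16. Without the members with mesothelial genes Gbp4 stood at 2.73, from 60 and 3 UMIs.

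Chemokines of the NF-kB and acute phase list were among the genes of high ratio. Of its 19 measured genes, 9 were higher and 0 lower, against 1.67% and 2.79% of all genes, with a median of 0.94. Ccl2, which recruits monocytes, had 278 niche and 9 distal UMIs, or 539 CPM (477 to 606) against 42.9 (19.6 to 81.4). It was found in 25 of 131 and 4 of 73 members, and its ratio was 3.57 (2.70 to 4.79). The neighbouring monocyte chemokine gene Ccl7 had 256 and 18 UMIs in 29 and 3 members, a ratio of 2.49 (1.84 to 3.31). In 1 distal cell 72.2% of its UMIs were found, and without the top cell of each library the ratio was 3.82. Ccl2 and Ccl7 occurred together in 15 niche members and in 0 distal ones.

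Cxcl1, a chemokine for neutrophils, was more widespread. It had 749 niche UMIs in 75 members and 96 distal UMIs in 16 members, or 1451 CPM (1349 to 1559) against 458 (371 to 559). The ratio was 1.66 (1.36 to 1.99), with 1.91 in mesenchymal cells outside the gates and 0.84 in Hhip-gated cells. Of the 25 niche members with Ccl2, 19 also had Cxcl1. Il6, which acts on hepatocytes and leukocytes, stood at 758 CPM in 59 niche members and 415 in 18 distal ones, with a ratio of 0.86 (0.53 to 1.22) that did not reach 2-fold. Cxcl1 and Il6 were found together in 45 niche and 8 distal members. Cxcl2 had 21 UMIs in 4 niche members and 0 in distal ones, which is at least 2.85-fold higher when 3 UMIs over all distal members stand for the 0.

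Other genes of the list encode proteins that limit or carry inflammation. Tnfaip6, whose product binds hyaluronan, had 281 and 55 UMIs and a ratio of 1.04 (0.63 to 1.5). The superoxide dismutase gene Sod2 had 1.04 (0.38 to 1.81), from 52 and 19 members. The NF-kB feedback gene Tnfaip3 stood at 1.09, and its partner Nfkbia at 0.45 (0.20 to 0.72). Of 17 immediate early genes, which tissue dissociation is known to induce, 0 passed 2-fold either way, against 1.67% higher and 2.79% lower of all genes. Their median was 0.15, with a range from -0.47 to 0.58. The intervals of Junb, Atf3, Fos and Nr4a1 lay above equality and none lay below it. The part of dissociation in these values was not tested.

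The alarmin Il33 and the surface antigen Ly6a were higher in niche members with Pi16. Il33, which activates type 2 lymphoid cells and regulatory T cells, had 74 niche UMIs in 35 members and 9 distal UMIs in 7, or 143 CPM (113 to 180) against 42.9 (19.6 to 81.4). Its ratio was 1.67 (0.74 to 2.93) in all members, 1.83 in members with Pi16 and 0.11 in those without. The last value rests on few cells, as Il33 had a UMI in 3 of 37 niche and 1 of 28 distal members without Pi16. The ratio was 2.14 once the members with mesothelial genes were left out. Of the 35 niche members with Il33, 32 also had Pi16. Mesenchymal cells outside the gates had a niche level of 12.2 CPM and a distal level of 10.2. Tslp, which encodes thymic stromal lymphopoietin, had a level of 81.4 CPM from 33 niche members and of 95.3 from 16 distal ones. Its ratio was -0.25 (-1.03 to 0.62). Unlike Il33, Tslp was not more often detected in members than in mesenchymal cells outside the gates. It had a UMI in 25.2% of niche and 21.9% of distal members, against 36.6% and 25.1% of those cells.

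Ly6a, which encodes Sca-1, had 1489 and 277 UMIs, or 2885 CPM (2740 to 3035) against 1320 (1169 to 1485). The ratio was 1.13 (0.94 to 1.32), and it was 1.29 with Pi16 and 0.03 without. In endothelial-gated cells the niche level of Ly6a was 5928 CPM and the distal level 3688. Among members it had a UMI in 101 of 131 niche and 38 of 73 distal members. Ccl11, the eosinophil chemokine eotaxin, had 252 and 45 UMIs, a ratio of 1.17 (0.72 to 1.68). It was found in 49 niche members, of which 44 had Pi16, and in 14 distal members, of which 11 had Pi16. Il33 and Ccl11 were the 2 higher genes among 21 of the chemokine, cytokine and receptor list, whose median was 0.40. Ly6a and Gfpt2, an enzyme of hexosamine synthesis (1.11), were the 2 higher genes among 25 of the adventitial list. The median of that list was 0.11 in all members, and it was -0.25 after thinning each cell to 1200 UMIs. Among receptors of the first list, Il1r1 had 0.60 (-0.42 to 1.90) and Ifngr1 -0.40.

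**Figure D4:**
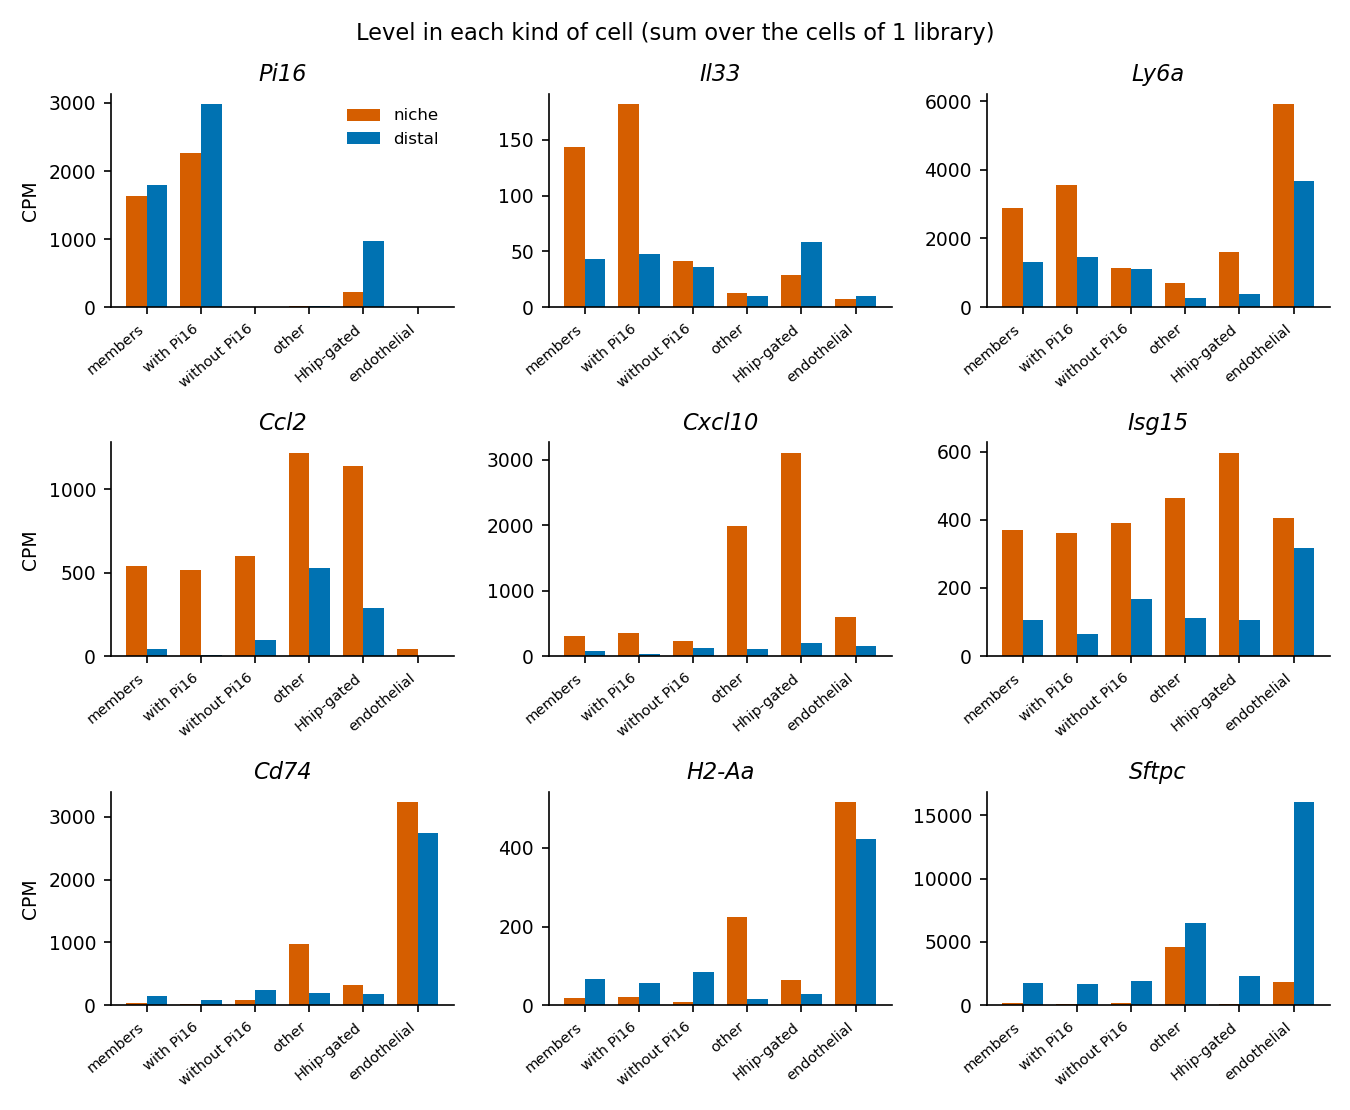
CPM of 9 genes in the niche (orange) and distal (blue) library, summed over all members, members with and without Pi16, mesenchymal cells outside the gates, Hhip-gated cells and endothelial-gated cells; bars start at 0. Il33 is highest in niche members with Pi16, Cxcl10 is highest in niche Hhip-gated cells, and Cd74 and H2-Aa are highest in endothelial-gated cells.

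Antigen presentation genes of the 2 classes differed in direction. Of 17 MHC class I genes, which present peptides to CD8 T cells, 2 were higher (H2-T22 at 1.13 and the immunoproteasome gene Psmb8 at 1.03) and 0 lower, with a median of 0.43. B2m stood at 3823 CPM (3656 to 3995) in niche and 2803 (2581 to 3039) in distal members, a ratio of 0.45 (0.31 to 0.58), and H2-D1 at -0.03 (-0.19 to 0.13). Of 5 MHC class II genes, 3 were lower, against 2.79% of all genes. They were Cd74, the invariant chain, at -1.94 (-2.87 to -1.08), H2-Aa at -1.91 (-3.33 to -0.63) and H2-Ab1 at -1.30 (-2.39 to -0.20). The median of the 5 was -1.30, while it was 2.50 in mesenchymal cells outside the gates, where 6 of 6 were higher, and 1.16 in Hhip-gated cells.

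The class II values in members rest on few UMIs. Cd74 had 19 UMIs in 17 niche members and 30 in 15 distal ones, and 50% of the distal UMIs came from 1 cell, so that the ratio without the top cell of each library was -1.14. The 10 distal members with most class II UMIs held 69% of them. Without the members with mesothelial genes the ratio of Cd74 was -1.13 and that of H2-Ab1 was -0.58, with an interval that included equality (-1.82 to 0.81). The Cxcl9 and Timp1 limit, which left out niche cells only, also bears on Cd74. With those cells it had 42 niche UMIs and a ratio of -0.92 (-1.63 to -0.19), which did not reach 2-fold. H2-Ab1 then stood at -1.32 (-2.39 to -0.23). In distal members the summed level of the list was 338 CPM, against 4864 in distal endothelial-gated cells, and in niche members 124 against 5609. The share of free RNA and of mixed cells in these UMIs was not tested.

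**Figure D5:**
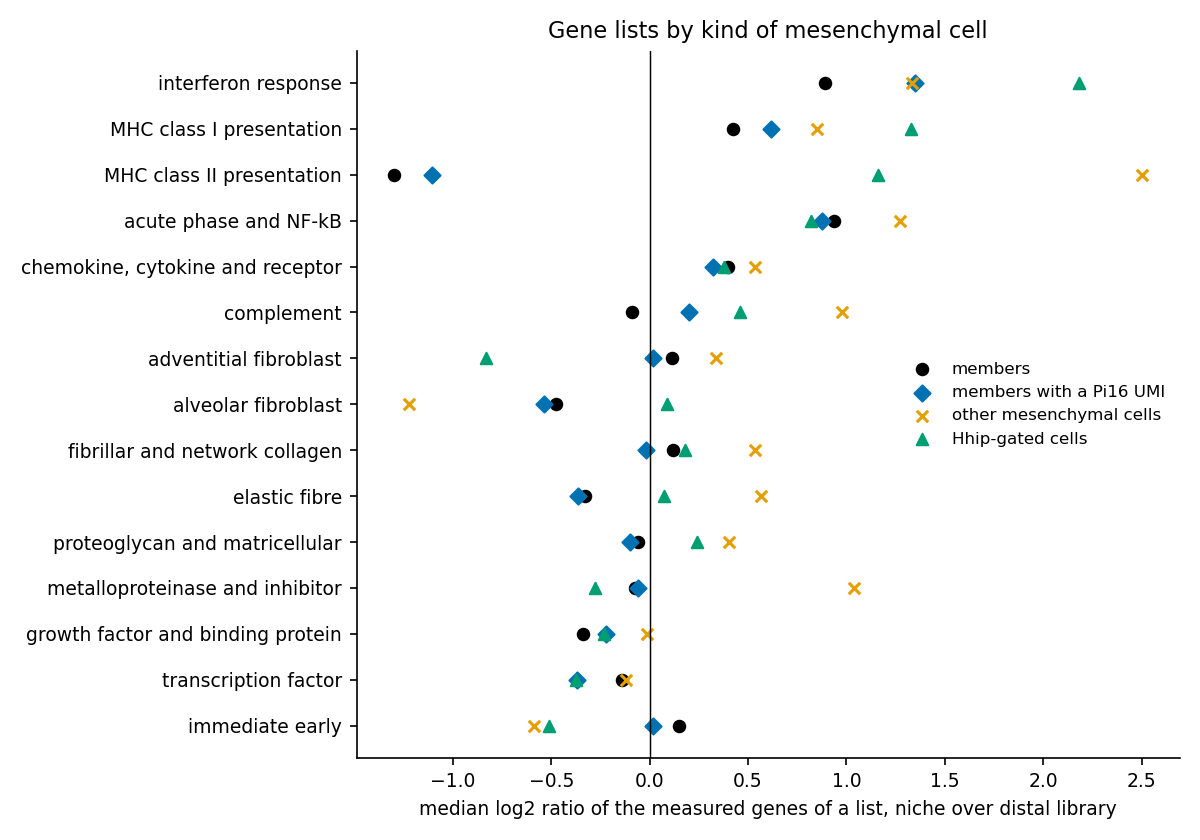
Median log2 ratio of niche over distal library for 15 gene lists in members (black), members with Pi16 (blue), mesenchymal cells outside the gates (orange) and Hhip-gated cells (green). The MHC class II list is at -1.30 in members and above 0 in both other kinds, and the collagen and adventitial lists of members lie near 0.

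The matrix of members was close in the 2 libraries. Of 15 collagen genes, 0 were higher and 1, Col18a1, was lower (-1.86, from 8 and 12 UMIs), with a median of 0.12. Col1a1, a gene of the rule like the next one, had a ratio of 0.31 (0.16 to 0.46) and Col3a1 of 0.59 (0.46 to 0.72). Of 21 proteoglycan and matricellular genes 0 were higher or lower, with a median of -0.06 and a range from -0.58 to 0.78. Of 16 elastic fibre genes 1 was lower, Efemp1 at -1.23 (-1.77 to -0.68), which encodes fibulin 3. Postn, the matrix gene periostin, had 40 niche UMIs in 18 members and 2 distal UMIs, a ratio of 2.72 (1.08 to 6.12), while mesenchymal cells outside the gates had -1.25.

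Medians of proteases and complement were likewise near 0, and that of growth factors was lower. Of 22 metalloproteinase and inhibitor genes 1 was higher, Adamts4, an aggrecan-cleaving enzyme, at 1.93 (0.74 to 3.73) from 21 and 4 members, and the median was -0.08. In mesenchymal cells outside the gates 11 of 23 were higher, with a median of 1.04. Of 33 growth factor genes 0 were higher and 3 lower, against 1.67% higher and 2.79% lower of all genes. The median of this list was -0.34, against -0.08 over all genes. The 3 were Igfbp3 at -1.98 (-2.61 to -1.39), Rspo1 at -1.63 (-2.72 to -0.59) and Wnt2 at -1.23 (-2.21 to -0.24). Igfbp3 had 39 UMIs in 18 niche and 63 in 20 distal members. Rspo1 had a ratio of -0.09 in members with Pi16 and of -0.61 (-1.93 to 0.89) without the members with mesothelial genes, and 31.6% of its distal UMIs came from 1 cell.

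Of 14 complement genes 0 were higher and 1 lower, and the median was -0.09. The lower gene was Clu, which encodes the chaperone clusterin, with 39 niche and 44 distal UMIs and a ratio of -1.47 (-2.13 to -0.82). In members with Pi16 the ratio was 1.46, and without the 5 members with mesothelial genes it was 0.00, from 32 and 12 UMIs. Bcam, an adhesion molecule gene, had -1.83 in all members and -0.93 without those cells. C2 had -0.68 (-1.30 to -0.04) in all members, 0.49 in members with Pi16 and 0.076 without the members with mesothelial genes.

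Metal and lipid genes held single genes of high ratio. Mt2, a metallothionein, had 1139 niche UMIs in 78 members and 196 distal UMIs in 29, a ratio of 1.24 (1.02 to 1.47), and Mt1 had 0.70 (0.57 to 0.82). Apod, a lipocalin gene, had 268 and 20 UMIs and a ratio of 2.41 (1.79 to 3.18). In 1 niche cell 50.4% of its UMIs were found, the ratio without the top cells was 1.70, and that in members with Pi16 was 0.58. Rpap1 (93.8% of 32 niche UMIs in 1 cell) and Rrad (80.0% of 30) rested on single cells as well. Lap3, a leucine aminopeptidase gene, was spread over 26 niche members with 30 UMIs and had 0 in distal members, which is at least 4.06-fold higher with 3 UMIs over all distal members in place of the 0. Ccl21a, a chemokine of lymphatic endothelium, had 25 UMIs in 21 niche members and 0 in distal ones, which is at least 3.39-fold higher by the same limit.

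Genes of endothelium were among the lower ones. Of 10 measured endothelial genes 2 were lower and 0 higher, with a median of -1.04. The 2 were Aqp1 and Cdh5, and Cdh5 is a gene of the rule. Ptprb, a vascular phosphatase gene outside that list, stood at 62.0 CPM (42.4 to 87.5) in niche and 257 (193 to 336) in distal members. Its ratio was -2.04 (-2.73 to -1.40). The water channel gene Aqp1 stood at 207 against 505 CPM, in 20 and 19 members, a ratio of -1.29 (-1.69 to -0.88), and its ratio over other mesenchymal cells was above 0 in both libraries. The summed level of the endothelial list, which holds the 5 genes of the rule, was 678 CPM in niche and 1173 in distal members, and the part of these transcripts in the lower values was not tested. Art4 and Fam174b, with 12 niche and 19 distal UMIs each, had -1.94 (-3.14 to -0.84).

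Some genes are listed in the niche table and not in the distal one, and a gene that a table leaves out has an unknown count there. The acute phase gene Saa3 had 129 UMIs in 21 niche members, of which 42.6% came from 1 cell, and its log2 ratio over other niche mesenchymal cells was -3.03 (-3.30 to -2.78). Others with many UMIs included Prrx2 (44), Lgi2 (39), Ptn (36), Matn2 (35), Cdon (34), Cyp1b1 (31), Fst (28) and the chemokine gene Ccl8 (27). Cdon, a hedgehog co-receptor gene, had a ratio of 4.13 (3.13 to 5.36) over other niche mesenchymal cells, and Cyp1b1, a monooxygenase gene, of 3.53 (2.61 to 4.58). Fst, the activin antagonist follistatin, had -2.27. No niche over distal ratio was given for these genes.

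The difference between libraries in members stood beside larger ones in other mesenchymal cells. Mesenchymal cells outside the gates had 428 higher genes (4.87% of 8797) and 521 lower (5.92%), and Hhip-gated cells had 288 (3.65% of 7900) and 370 (4.68%). Of the 115 genes higher in members, 35 were also higher in mesenchymal cells outside the gates, which is 30.4% of the 115 and 8.18% of the 428. The interferon list, which holds Cxcl9 of the rule, had 17 of 26 genes higher in those cells (median 1.33) and 20 of 25 in Hhip-gated cells (2.18), against 9 of 24 in members. For MHC class I the medians were 0.85 and 1.33, against 0.43 in members. These kinds differ in size and depth, with median UMIs of 2833 and 2066 in niche and distal cells outside the gates and 3862 and 1971 in Hhip-gated cells, and the differences between kinds were not tested.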

How the data were processed

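Each of the 2 deposited tables gives whole UMI counts for every listed gene in each barcode, made by the authors with Cell Ranger 2.1.1 and R 3.4.1 on mm10, per the submitters' processing notes; Chromium 3' chemistry is named in the labels' protocols. The tables list 10791 and 10814 genes, of which 10198 are in both. Counts were analysed with Python 3.11.15, numpy 2.4.6, scipy 1.17.1, pandas 2.3.3 and scanpy 1.11.5, and drawn with matplotlib 3.10.9. UMIs were summed over cells and scaled to the common genes. Log2 ratios used 0.5 UMI added to each sum, and their intervals are exact conditional binomial 95% intervals without that addition. Counts of 0 were given as limits of 3 UMIs. Scrublet doublets were kept, with their removal as an alternative. Interval code was tested on simulated data.

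The members and the 30 gene lists were chosen with earlier results of these data known. Named genes were the rule genes and markers, the 12 highest and 12 lowest niche over distal ratios by interval bound with at least 30 UMIs, up to 4 genes per list and direction with those of most UMIs, the 25 highest over other mesenchymal cells, and 10 listed in 1 table. Genes named for their place in the text beyond this rule were chosen after their values were seen, as were the Pi16 split, the mesothelial cells and the co-detected pairs. For a list median, the spread against which an alternative was read was the median half-width of its gene intervals, scaled as the error of a median over its number of genes. Promoter windows came from RefSeq tables of GRCm38.p6.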

Additional observations from a re-analysis of the deposited data

Results flagged for a closer look

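In each case below the intervals of the ratio of niche over distal library lay on opposite sides of equality in members and in another kind of mesenchymal cell, and the difference between kinds was not tested. Cd74 had a log2 ratio of -1.94 in members and 2.33 in mesenchymal cells outside the gates. With the niche cells that the Cxcl9 and Timp1 limit left out, the ratio of Cd74 in members was -0.92. H2-Aa had -1.91 in members, against 3.76 outside the gates and 1.16 in Hhip-gated cells. H2-Ab1 had -1.30 in members, or -0.58 without those with mesothelial genes, against 1.70 and 1.25. Krt18 had -2.38 in members and 2.30 outside the gates, and all 9 distal UMIs of members lay in the 4 distal cells with mesothelial genes. Procr, the protein C receptor gene, had -1.47 in members and 3.73 outside the gates. Postn had 2.72 in members and -1.25 outside the gates. Il33 had 1.67 in members and -1.01 in Hhip-gated cells. The haemoglobin gene Hbb-bs, a gene of red cells, had 3.80 in members (51 niche and 1 distal UMIs) and -2.82 outside the gates. The list of red cell and platelet genes summed to 215 CPM in niche and 4.77 in distal members. It summed to 9224 and 8.27 in endothelial-gated cells, and to 292 and 589 in all mesenchymal cells but members.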

How the results depend on the processing

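With 1 library per group no alternative tests the difference between groups. Depth limited the comparison to the 6886 of 10198 shared genes with 10 UMIs in members. Of 14 alternatives 4 (members with Pi16, no endothelial UMI, no shared barcodes, no mesothelial genes) were chosen after seeing the data. No paired analysis was possible because each group is 1 library and replicate numbers only name samples. In the niche, members were 6.61% of kept and 12.6% of mesenchymal cells after thinning to 1200 UMIs, 7.52% and 13.5% with a rule sum of at least 5, 6.61% and 11.9% with Pi16, and 3.72% and 6.68% with no endothelial UMI. In the distal library they were 5.13% and 25.8% with at least 1000 genes per cell, 2.62% and 13.9%, 2.26% and 12.1%, and 1.41% and 7.51% in the same last 3 settings. The counts of higher and lower genes were 55 and 61 after thinning, and 67 and 75 with at least 30 UMIs per gene. Both settings leave fewer genes or UMIs to count. The interferon median was 1.35 after thinning and 1.35 with Pi16, the MHC class I median 0.62 with Pi16, the acute phase median 1.47 with no endothelial UMI and the complement median 0.20 with Pi16. The adventitial median was -0.25 after thinning, 0.0060 with a rule sum of at least 5 and -0.011 with equal weight per cell. The cause of these shifts was not tested. Of 2275 gene values under the alternatives 24 changed sign. After thinning these were Aldh1a1 0.74, Atf3 -0.20, Ces1d 0.50, Col1a1 -0.085, Cxcl14 0.12, Fbn1 -0.71, Gstt1 0.27, Inmt 0.081, Itga8 0.74, Mmp3 -0.90, Mylk 0.74, Pcolce2 0.16, Serpinh1 -0.090 and Zeb2 0.074, with the alveolar fibroblast median at 0.40. With Pi16 they were C2 0.49, Ces1d 0.82 and Clu 1.46. With no endothelial UMI they were Fn1 -0.083, Gsn 0.12 and Serpinh1 -0.088. Without mesothelial genes they were C2 0.076 and Igfbp5 0.14. Itga8 was 0.0052 with a rule sum of at least 5 and Mmp3 -0.026 with equal weight per cell. Of the 2275 values, 2067 stayed within the counting interval of the reported ratio and 184 left it with the same sign.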
